A study of Mus musculus with 16 samples.

Results

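The 10 genes described here are Vgf, Scg2, Scg3, Chga, Chgb, Npy, Sst, Tac1, Penk and Pcsk1n, the neuropeptides, granins and prohormone convertase inhibitor of the mouse retina that were chosen by symbol. All 10 were found among the 25905 genes of the deposited table of all genes. RNA was sequenced from the dissected right retinas of 16 wild type C57BL/6 male mice, labelled 10 weeks old. In the paper this is the age of the mice that were flown. Eyes were collected after splashdown, so the label is not the age at collection. The spaceflight group of 8 mice was flown on the International Space Station and returned alive. The ground control group of 8 mice lived on Earth in the same type of housing hardware, with the same food and a matched environment. The values below are means over all libraries, with the spaceflight and ground control groups pooled. The difference between the groups, which the design of the study addresses, is not analysed here. No spread between mice stands behind a pooled mean, so no order of levels below was tested.

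Neuropeptides are made as larger precursor proteins, which are sorted into dense-core vesicles and cut there by prohormone convertases. The granins are acidic, soluble proteins of the same vesicles. They take part in the formation and loading of these vesicles, and some are themselves cut into active peptides. In the retina, neuropeptides such as somatostatin, enkephalin and substance P are known mainly from subtypes of amacrine cells, the inhibitory interneurons of the inner retina, and in part from ganglion cells. Several of these genes are known targets of the transcription factor CREB, which binds the cyclic AMP response element of their promoters and links transcription to neuronal activity.

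The promoter sites were examined first, since several of these genes are known targets of CREB. RefSeq promoter windows (GRCm38.p6) of 300 bases, from 250 before to 50 after the gene start, were matched by symbol for 8 of the 10 genes. There was no entry for Vgf and Penk. Both strands were searched for the full element TGACGTCA, for the variant TGACGTAA and for the core TGACG, which is contained in the other two. The full element was found in the windows of Scg2, Chgb and Sst, against 1.79% of all 32851 windows, and the variant was found in the window of Chga, against 0.499% of all windows. The 4 sites are shown because they are the complete or variant elements in the group. They are printed 5′ to 3′ on the gene's own strand, with the element in capitals:
Scg2, chr1:79440076-79440105, minus strand: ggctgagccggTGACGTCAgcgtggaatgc
Chgb, chr2:132781559-132781588, plus strand: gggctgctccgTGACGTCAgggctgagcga
Sst, chr16:23890874-23890903, minus strand: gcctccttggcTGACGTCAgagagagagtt
Chga, chr12:102554886-102554915, plus strand: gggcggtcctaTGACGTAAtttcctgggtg

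The element began 68 bases before the RefSeq start in Scg2, 72 bases before it in Chgb, 48 bases before it in Sst and 44 bases before it in Chga. All 4 elements thus lay within 72 bases of the start, in granins and in a peptide precursor alike. In the GENCODE M21 transcripts, which begin further upstream for Scg2, Chgb and Sst, these 3 elements fell within an annotated exon, whereas the element of Chga did not. Only the core was found in Scg3, 30 bases before the start, and in Tac1, where it occurred at 197 and at 43 bases before the start. With these, 6 of the 8 windows held the core, against 20.8% of all windows. The windows of Npy and Pcsk1n held none of these letters. A match describes the sequence and does not show that a factor is bound. The windows also differed in base composition, since their GC content ran from 50.3% in Sst to 72.7% in Chgb.

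**Figure D1:**
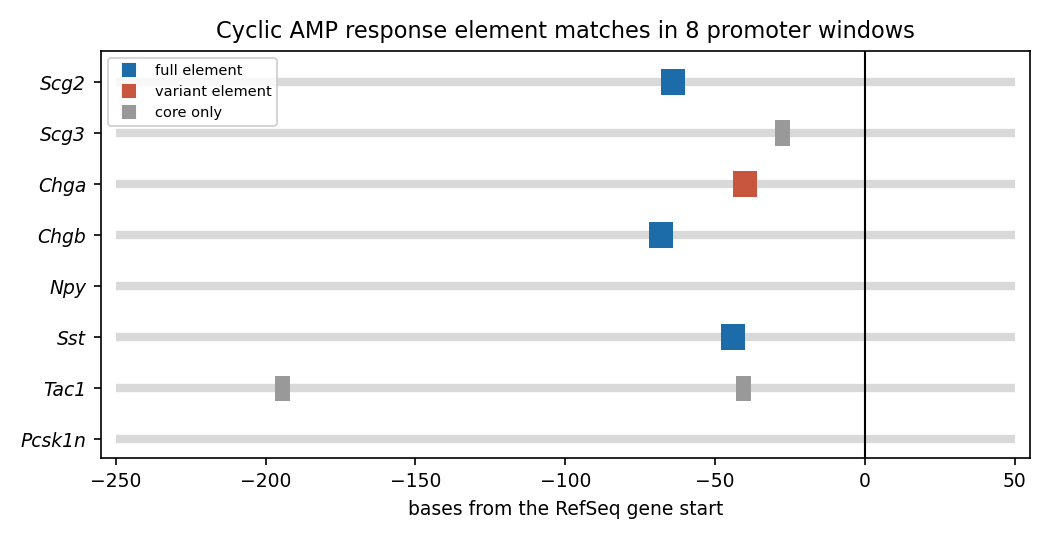
Positions of the cyclic AMP response element in the RefSeq promoter windows of 8 genes, in bases from the gene start. Each grey line is a window and each coloured block a match. The full elements of Scg2, Chgb and Sst and the variant of Chga lie between 72 and 37 bases before the start, and Npy and Pcsk1n have no match.

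Of the 10 genes, 9 were expressed above the level used here for ranking, a mean normalized count of 10, and Scg3 was listed at 0. Over all genes listed, 47.8% reached this level. The mean normalized count is the number of reads of a gene after the authors divided each library by its size factor. Since longer transcripts give more reads, levels are compared between genes as this count per kilobase of the longest GENCODE M21 transcript (GRCm38) that is linked to the gene's RefSeq record. On this scale the median of the 9 genes was 297.7 counts per kb, against 67.2 counts per kb for the 11175 genes that reached the same minimum count and had a length. Together the 10 genes took 0.244% of all counts in the table. The sum was uneven, with 0.203% in the granins, 0.0307% in Pcsk1n and 0.0109% in the 4 peptide precursors. A low count in whole retina does not tell fewer expressing cells apart from less RNA per cell.

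**Figure D2:**
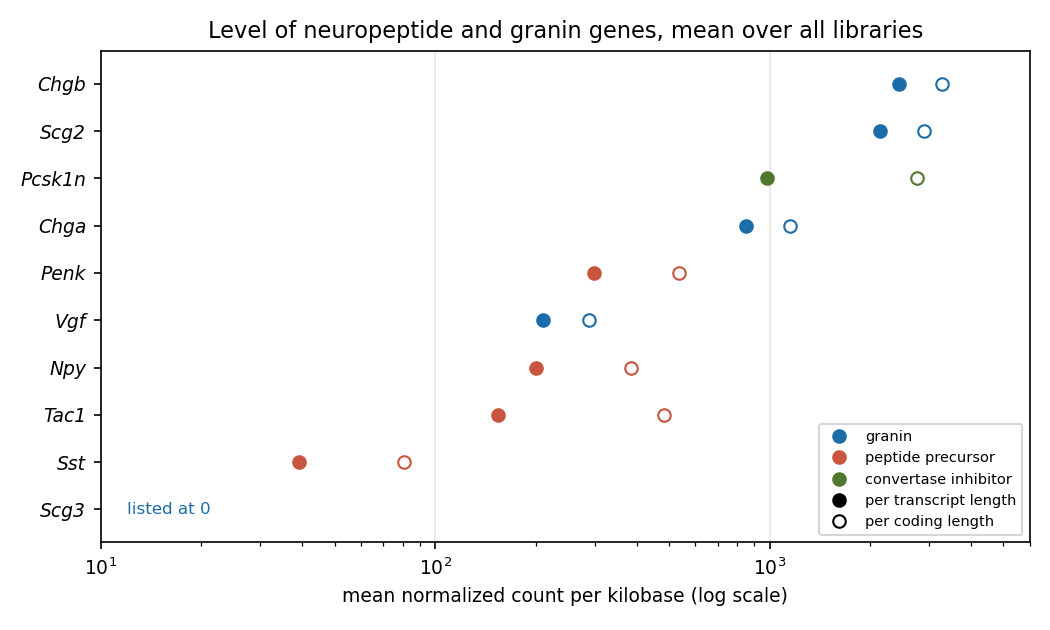
Mean normalized count per kb of the 10 genes on a log scale, as the mean over all libraries of both groups. Filled points use the transcript length and open points the coding length, and colours give the role of the gene. Chgb and Scg2 lie highest, Sst lowest of the genes above 0, and Scg3 is listed at 0.

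Among the granins, Chgb (chromogranin B) and Scg2 (secretogranin II) were the most abundant. Chgb, at chr2:132781278-132795079 (GRCm38, 5 exons), had a mean normalized count of 6668 and 2434 counts per kb, above 99.2% of the ranked genes. Scg2, at chr1:79434669-79440120 (2 exons), the precursor of secretoneurin, had a mean normalized count of 5370 and 2135 counts per kb, above 99.1% of the ranked genes. The level of Chgb was 1.14 times that of Scg2 per kb, and no replicate error was at hand to tell these neighbours apart. By count alone they were the genes of rank 78 and 109 in the whole table.

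Chga (chromogranin A, chr12:102554969-102565028, 8 exons) is the granin from which the family takes its endocrine use as a marker of neurosecretory cells. It had a mean normalized count of 1605 and 852.3 counts per kb. Chgb exceeded it 2.86 times per kb. Both Chgb and Scg2 had a pooled level above that of Chga.

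Vgf (VGF nerve growth factor inducible, chr5:137026392-137033351, 2 exons) is a granin-like precursor that is cut into several active peptides and is induced by neurotrophins. Its mean normalized count was 535.3 and its level was 209.7 counts per kb, above 81.2% of the ranked genes. Per kb, Chgb stood 11.6 times, Scg2 10.2 times and Chga 4.06 times above Vgf. Vgf was therefore the lowest of the 4 granins above 0, at a level close to that of the peptide precursors. Its nearest neighbour was Npy, from which it differed 1.05 times per kb. Vgf also had the most GC-rich transcript of the 10 genes, at 64.8% GC against a median of 50.4% over the ranked genes with a length.

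**Figure D3:**
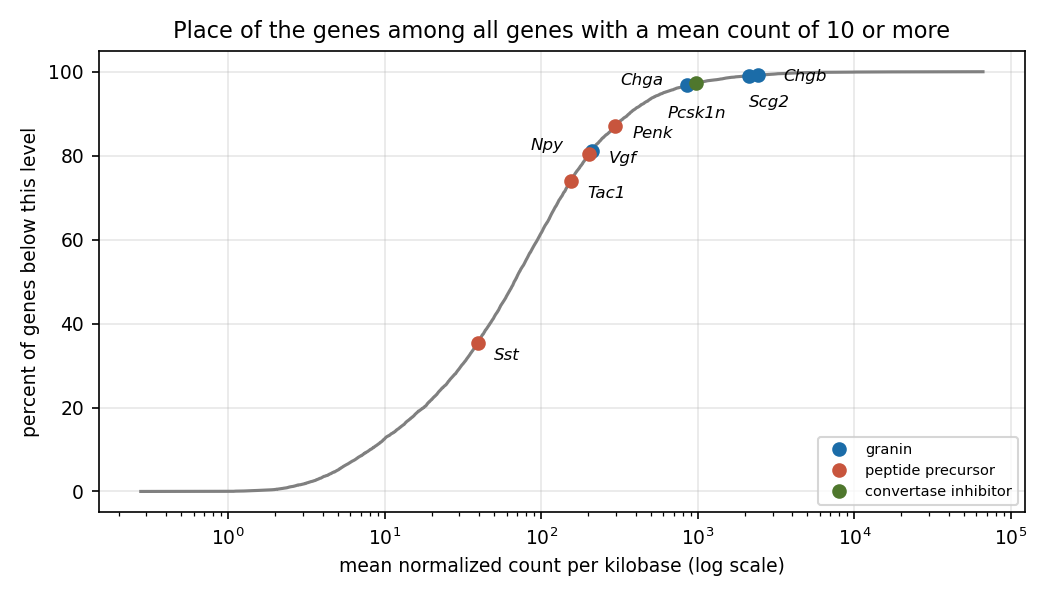
Cumulative distribution of the mean normalized count per kb (log scale) over all genes with a mean normalized count of 10 or more and a known length, with the 9 genes above 0 marked. The vertical axis gives the percent of genes below a level. Chgb, Scg2, Pcsk1n and Chga lie above 96.8% of genes or more, whereas Sst lies above 35.3%.

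The 4 peptide precursors spread over a 7.60-fold range per kb, all below Chgb, Scg2 and Chga. Penk (proenkephalin, chr4:4133531-4138819, 2 exons), the precursor of the enkephalins, was the highest of them, with a mean normalized count of 431.4 and 297.7 counts per kb. Npy (neuropeptide Y, chr6:49822710-49829507, 4 exons) followed with a mean normalized count of 113.4 and 200.3 counts per kb. Tac1 (chr6:7554879-7565834, 7 exons), the precursor of substance P and neurokinin A, had a mean normalized count of 189.8 and 154.3 counts per kb. Npy thus had fewer reads than Tac1 but the higher level per kb, its transcript being 566 bases long against 1230 bases. Per kb of coding sequence this order turned, with 385.7 for Npy against 483.0 for Tac1.

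Sst (somatostatin, chr16:23889573-23890958, 2 exons), an inhibitory peptide, was the lowest of the genes above 0. Its mean normalized count was 28.2 and its level 39.2 counts per kb, so that it was the only one of the 9 below the median of the ranked genes per kb. Chgb, the highest of the 10 genes, stood 62.2 times above Sst per kb and 40.8 times per kb of coding sequence.

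Pcsk1n (chrX:7919822-7924410, 3 exons) encodes proSAAS, a granin-like precursor that inhibits the prohormone convertase encoded by Pcsk1. It had a mean normalized count of 2149 and 980.1 counts per kb, the third highest of the 10 genes. This was 1.15 times the level of Chga per kb, and 2.40 times per kb of coding sequence. Its own target enzyme Pcsk1 had a mean normalized count of 79.0 and 15.7 counts per kb. The inhibitor transcript was 62.5 times as abundant as that of the enzyme per kb. This ratio was 79.2 per kb of coding sequence and 27.2 by count.

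The order of the levels depended in part on the length used. Per kb of coding sequence, 7 of the 9 genes kept their rank. Vgf, with 288.7 counts per coding kb, moved from rank 6 to rank 8, and Tac1, with 483.0 counts per coding kb, moved from rank 8 to rank 6. Pcsk1n, in which only 777 of 2193 transcript bases are coding, rose to 2766 counts per coding kb, close to the 2897 of Scg2. Chgb and Scg2 at the top and Sst at the bottom kept their ranks on both scales.

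Scg3 (secretogranin III, chr9:75643189-75684056, 12 exons), a granin that anchors the others to the membrane of the secretory granule, was listed at 0. It was also the only one of the 10 genes with 2 RefSeq transcript records (NM_001164790.1 and NM_009130.3) in the count table, which gives reads per transcript record rather than per gene. The records share most of their sequence, with 232 of 2384 exonic bases (9.73%) belonging to 1 record alone. Over the whole table, 24.6% of the 3794 genes with 2 or more records reached a mean normalized count of 10, against 51.7% of the 22086 genes with 1 record. Where under 10% of the exonic bases belonged to 1 record alone, as in Scg3, the share was 8.45% of 746 genes, and it was 59.1% of the 591 genes in which 50% or more did. The part of this counting in the value of Scg3 was not tested, and the listed 0 is not read as an absence of the transcript.

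**Figure D4:**
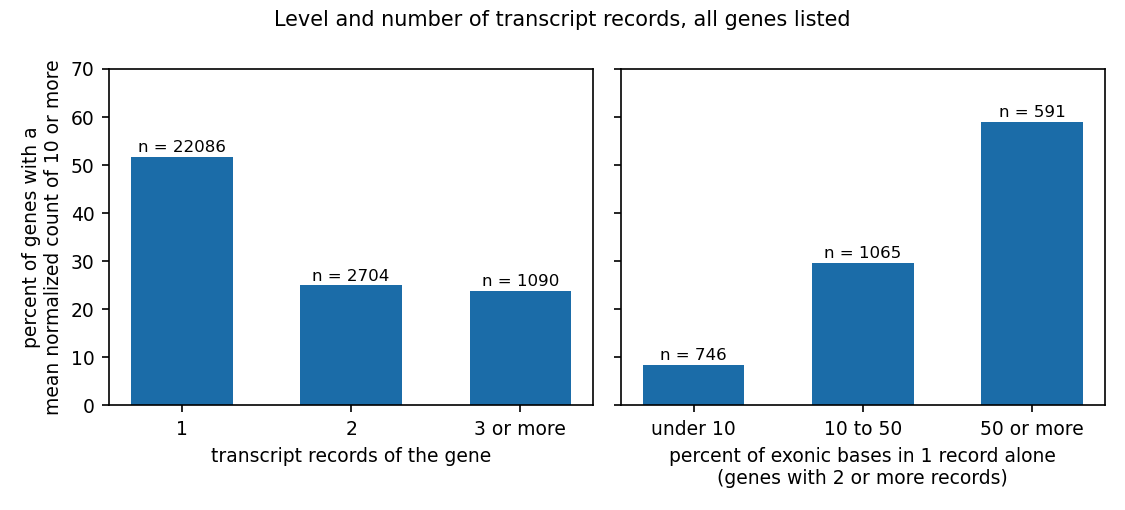
Percent of genes with a mean normalized count of 10 or more, by the number of RefSeq transcript records of the gene (left) and, for genes with 2 or more records and known exons, by the percent of exonic bases that belong to 1 record alone (right). The bars fall from 51.7% for 1 record to 25.0% for 2 and 23.9% for 3 or more, and rise from 8.45% to 59.1% with the bases of 1 record.

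Exons of other genes overlapped those of 2 members. The transcript of Penk shares 157 bases (10.8% of its length) with the antisense gene A830012C17Rik, and that of Pcsk1n shares 135 bases (6.16%) with the antisense gene Eras. The libraries were stranded, but whether the counting used the strand is not given in the sources used here. Reads from these stretches therefore could not be assigned with certainty. No exon overlap was found for the other 8 genes.

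The related genes were described from lists of the same pathway, each by its 5 most abundant genes. Of 24 neuropeptide precursors, 10 reached a mean normalized count of 10, against 47.8% of all genes listed. All 10 were among the 22 precursors with 1 transcript record, against 51.7% of all genes with 1 record. The most abundant by count were Penk, Tac1, Tac2 (174.5), Vip (126.2) and Cck (118.4). Tac2, the precursor of neurokinin B, stood at 257.4 counts per kb, between Penk and Vgf. Vip, the precursor of vasoactive intestinal peptide, stood at 82.5 and Cck, the precursor of cholecystokinin, at 171.3 counts per kb. All 4 precursors of the group thus were among the 10 that reached the minimum count, although Sst was below Vip and Cck.

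Of the 20 listed genes of the machinery that makes and releases these peptides, 16 reached a mean normalized count of 10, against the same 47.8% of all genes. These were 15 of the 15 genes with 1 transcript record and 1 of the 5 with more, against 51.7% and 24.6% over all genes listed. Cpe, the carboxypeptidase that trims the cut peptides, was the highest with a mean normalized count of 9664 and 4565 counts per kb, 1.88 times the level of Chgb. It was followed by count by Pcsk1n, by the vesicle protein gene Syt4 (1447), by Scg5 (1347), which encodes the chaperone of the convertase PC2, and by the vesicle protein gene Ptprn (1324). Of the convertases themselves, Pcsk2, which encodes PC2, stood at 115.9 counts per kb, 7.39 times the level of Pcsk1. In both pairs the partner exceeded the enzyme, since Scg5 was 9.62 times as abundant per kb as Pcsk2.

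**Figure D5:**
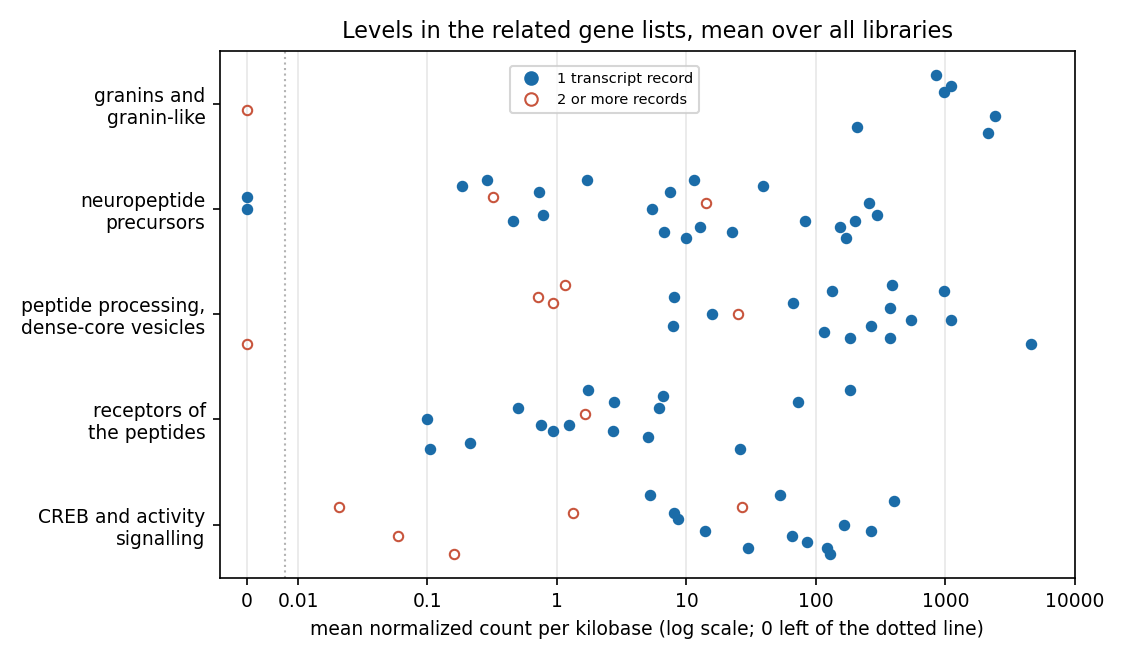
Mean normalized count per kb of every gene with a length in the 5 related lists, on a log scale with genes listed at 0 left of the dotted line. Each point is a gene, filled for 1 transcript record and open for 2 or more. Apart from Scg3, listed at 0, the granins and granin-like genes lie at 209.7 counts per kb or more, and most of the receptors lie below 10 counts per kb.

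Of 17 listed receptor genes of the peptides, 6 reached a mean normalized count of 10, against 47.8% of all genes listed. The highest were Tacr3 (274.1), the receptor of neurokinin B, C1qbp (215.0), a mitochondrial protein that also binds a peptide of Vgf, and Tacr1 (129.9), the receptor of substance P. They were followed by Npy1r (18.6), a receptor of neuropeptide Y, and Oprm1 (15.9), an opioid receptor. Among the receptors of somatostatin, only Sstr1 reached the minimum, with a mean normalized count of 10.2, a gene that was named after its value was seen. Sstr2, listed at 3.53, has 2 transcript records, and the part of the counting in its value was not tested.

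Of 18 genes listed for the CREB pathway and for neuronal activity, 14 reached a mean normalized count of 10, again against 47.8% of all genes. These were all 13 with 1 transcript record and 1 of 5 with more. The most abundant were the coactivator Crebbp (2887), the activity-induced factor Egr1 (1217), the CREB coactivators Crtc1 (687.8) and Crtc2 (453.3) and the nuclear receptor Nr4a1 (317.5). Per kb, Egr1 at 400.9 stood above Vgf, whereas Crtc1 at 121.0 stood below it.

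The full promoter element was not limited to the 10 genes. Among related genes with a promoter window it was also found in Cartpt, Pcsk1, Slc18a2 and Sstr2. With Sst counted, it was in 2 of 18 neuropeptide precursors, 2 of 15 machinery genes, 1 of 14 receptors and 0 of 11 genes of the CREB list. Of the 6 granins and granin-like genes with a window, 2 held it and 5 held the core. The core was also in 10 of 18 neuropeptide precursors, 7 of 15 machinery genes, 4 of 14 receptors and 7 of 11 genes of the CREB list. Over all windows the shares were 1.79% for the full element and 20.8% for the core. These shares are per window, whereas a gene of a list was counted once if any window of it matched, so the units differ.

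The labelled tissue was checked against markers of its cell types. The rod transducin gene Gnat1 had a mean normalized count of 154477. Markers of the cells known to make these peptides were present, since the 7 amacrine markers found in the table ran from 24.8 to 2415 and the ganglion cell markers with 1 transcript record from 118.0 to 2999. Markers of neighbouring tissue ran from 2.72 to 540.0 for the pigment epithelium and from 8.74 to 897.6 for the lens, ranges that overlap those of the amacrine and ganglion cell markers. Of 5 markers of pituitary or pancreatic endocrine cells, Gh, Prl and Ins2 were listed at 0, Gcg had a mean normalized count of 0.118 and Pomc, which is also on the list of neuropeptide precursors, had 23.0. Prl and Ins2 have 2 or more transcript records. The part of other tissue in the levels of the 10 genes was not tested.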

How the data were processed

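Retinal RNA of 16 mice, 8 per group by the treatment label, was made into stranded, ribosomal RNA-depleted libraries. Single-end reads were cleaned by the authors in Trimmomatic, aligned by TopHat2 against an NCBI mouse assembly that precedes GRCm38, and counted per transcript with HTSeq. The value used is a signal that the authors deposited, the mean over all libraries of counts divided by size factors (DESeq2 1.22.2 in R 3.5.1, per the labels). It sums to 6.99581e+06 over genes, and the depth of single libraries is not used here. The comparison columns of the deposited tables (log2 fold changes, errors, statistics and p-values) hold the findings of the study and were not used. The 32 library columns of counts carry codes that no label pairs with a mouse and were not used either, so the planned count test was not run. The deposited table names the 31616 transcript records, other than 5 rows that name no gene.

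Levels were divided by GENCODE M21 lengths (GRCm38), which were found for 90.3% of genes with a mean normalized count of at least 10, and 25 listed symbols had no matching record. Coordinates of genes are from GENCODE and not from the authors' build. Motifs were exact matches in RefSeq windows. Python 3.11.15 and matplotlib 3.10.9 were used, and the matching and ranking were tested on simulated data. The 10 genes and the lists were chosen with earlier results of these data known. The text names all 10 genes and the 5 most abundant genes of each list. Genes outside this rule were named after their values were seen, namely Sstr1, A830012C17Rik, Eras, Pcsk1, Pcsk2, Cartpt, Slc18a2 and Sstr2, while marker genes come from the marker lists.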

Additional observations from a re-analysis of the deposited data

How the results depend on the processing

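The median level of the 9 genes above 0 was 297.7 counts per kb. It was 534.5 per kb of coding sequence and 209.7 without Penk and Pcsk1n, an alternative chosen after seeing the data. By count, the median place of these genes was above 77.6% of the genes with a mean normalized count of 10 or more. It was 85.9% among all genes above 0, 77.7% among genes at 100 or more, where Sst is not ranked, and 76.4% among the 11421 genes with 1 transcript record, which was also chosen after seeing the data. The full promoter element was found in 3 genes in both windows, and in the 150 bases before the start the share over all windows was 1.36%. A coding length was taken from GENCODE, not from RefSeq proteins.

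No paired analysis was possible because the library columns carry no replicate number that the labels give, and no test between the groups was made. For the same reason the further settings for the group comparison (another threshold, tool, size factors, filter and replicate block, and leaving out each library) were not run. Pooled means carry no replicate error, so neighbouring levels could not be told apart.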

Other observations

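Of the neuropeptide precursors with 1 transcript record, Nts, the precursor of neurotensin, and Pyy, the precursor of peptide YY, were listed at 0. Pdyn and Pomc, which encode the opioid precursors prodynorphin and proopiomelanocortin, had mean normalized counts of 23.8 and 23.0 against 431.4 for Penk. Penk was the most abundant of these 3 per kb as well, at 297.7 against 9.98 and 22.3. These genes were named after their values were seen.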
